A study of Mus musculus with 2 samples.

Results

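Macrophage genes were examined in RNA sequencing of mouse hindlimb tissue, as 10 genes taken from the deposited table by exact symbol, out of 44787 genes with values. All 10 were found: Csf1r, Ptprc, Itgam, Trem2, Mrc1, Cd163, Cd68, Lyz2, Lgals3 and Aif1. The study had 2 libraries. The control library came from an Srsf2 flox/flox mouse sample and the MyoD-Cre library from an Srsf2 flox/flox MyoD-Cre sample, so both carried floxed Srsf2 alleles and 1 of them also carried the Cre allele. Srsf2 encodes a splicing factor rich in serine and arginine. MyoD-Cre drives Cre in cells of the muscle lineage, to which macrophages do not belong. The sources used here give no age, sex or number of animals for either library, and the sample was a whole hindlimb collection with no sorting of cells named in the labels.

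With 1 library per genotype, differences could not be checked against replicates, no test was made, and "higher" and "lower" refer to this pair of libraries alone. The control library held 69422626 reads and the MyoD-Cre library 76702198 reads, of which 81.4% and 80.0% were mapped. Srsf2 itself was at 31.1 FPKM (a fragment count per length of gene and size of library) in the control library and at 19.4 FPKM in the MyoD-Cre library, a ratio of 0.624. Muscle markers were present in both and lower in the MyoD-Cre library. Skeletal actin, Acta1, was at 7239 and 4139 FPKM, the myosin gene Myh8 at 15047 and 6684 FPKM and desmin, Des, at 1837 and 1661 FPKM. FPKM is relative to library size, so a change in such abundant RNAs also shifts the values of other genes. The size of this shift was not tested. Epidermal RNA was far more abundant in the MyoD-Cre library: the summed level of 10 keratinocyte genes was 12.3 FPKM in the control and 1854 FPKM in the MyoD-Cre library. In whole tissue, fewer cells of a type and less RNA per cell cannot be told apart.

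Macrophages of skeletal muscle live in the connective tissue between the fibres, clear dying cells and debris, and guide repair after injury. Their survival depends on the receptor encoded by Csf1r, and the transcription factor PU.1, encoded by Spi1, sets up their gene programme by binding sites with a GGAA core. Resident macrophages of muscle carry the scavenger receptors encoded by Mrc1 and Cd163, while Trem2 and Lgals3 are known from macrophages that take up lipid and debris. Several of these genes are shared with other cells. Itgam and Lyz2 are also expressed by neutrophils, Csf1r by osteoclasts, Ptprc by all white blood cells and Lgals3 by epidermal and cartilage cells.

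The bases just before the start of 4 members are shown to place the genes that differed most beside those that did not, and to show where GAGGAA, a longer form of the PU.1 core, lies. Sequences are from RefSeq on GRCm38.p6, on the strand of the gene, and capitals mark GAGGAA or its reverse complement TTCCTC. The shorter GGAA core, on either strand, also occurs outside the capitals in each stretch, Lgals3 included, and is not marked. Each stretch is the 120 bases that end at the base before the start. The stretches are chr7:128062520-128062639 on the plus strand for Itgam, chr2:14229294-14229413 on the plus strand for Mrc1, chr17:35176053-35176172 on the minus strand for Aif1 and chr14:47373740-47373859 on the plus strand for Lgals3.
Itgam: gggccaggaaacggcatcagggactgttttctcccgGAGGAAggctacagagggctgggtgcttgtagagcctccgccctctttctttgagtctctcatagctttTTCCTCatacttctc
Mrc1: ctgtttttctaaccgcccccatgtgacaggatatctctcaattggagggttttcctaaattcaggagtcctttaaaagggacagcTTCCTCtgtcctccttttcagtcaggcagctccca
Aif1: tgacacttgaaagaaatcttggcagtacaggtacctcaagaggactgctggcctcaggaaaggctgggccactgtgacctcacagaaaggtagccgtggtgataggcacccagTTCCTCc
Lgals3: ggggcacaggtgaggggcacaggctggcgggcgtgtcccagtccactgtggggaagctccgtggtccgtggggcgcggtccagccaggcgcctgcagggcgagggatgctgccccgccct

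RefSeq windows were matched for 9 of the 10 members, and 6 of the 9 held GAGGAA on either strand within the 250 bases before a start. Among 32851 windows of the same length over all genes, 23.3% held it. In Itgam the motif began 84 and 15 bases before the start, in Aif1 7 bases and in Trem2 40 bases before it. Mrc1 had it at 180, 167 and 35 bases, Cd68 at 225 bases and Ptprc at 158 bases before the first of its 2 listed starts. Cd163, Lyz2 and Lgals3 had none in this window, which says only that these letters are not there. The Lgals3 window was rich in G and C, at 66% of its 250 bases, against a median of 52.4% over all windows. TATAAA, the TATA box, was found for 1 of the 9 members, Ptprc, and in 12.4% of all windows.

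**Figure D1:**
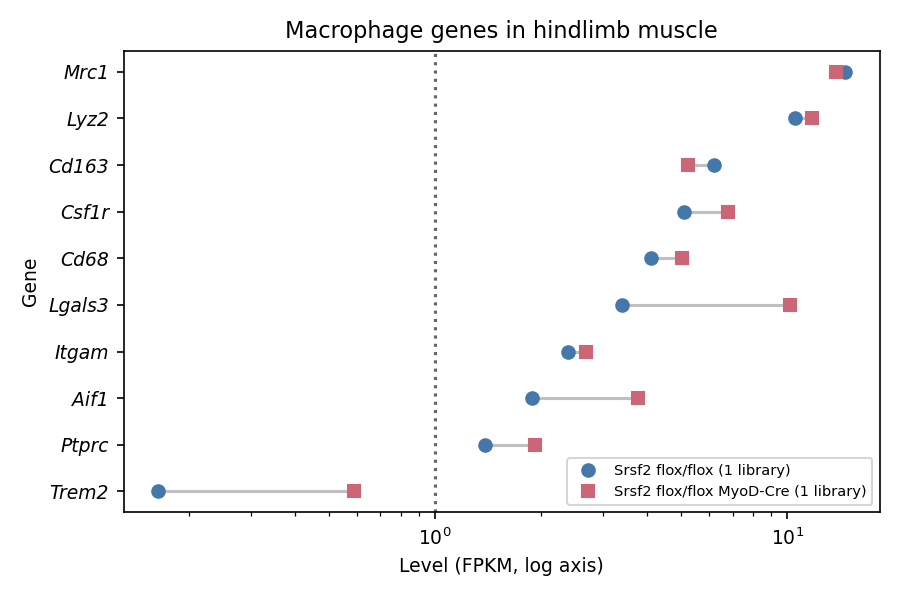
Level of each of the 10 genes (FPKM, log axis) in the control library (circles) and the MyoD-Cre library (squares), 1 library each; the dotted line marks 1 FPKM. Lgals3 moves from rank 6 in the control to rank 3, and Trem2 lies below 1 FPKM in both libraries.

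The level of a member spanned a wide range in both libraries. Mrc1 was the most abundant at 14.6 FPKM in the control and 13.8 FPKM in the MyoD-Cre library, and Lyz2 was the next at 10.5 and 11.7 FPKM. Trem2 was the least abundant at 0.164 and 0.591 FPKM. FPKM is scaled to gene length, so levels can be compared between genes. In the control library the order was Mrc1, Lyz2, Cd163, Csf1r, Cd68, Lgals3, Itgam, Aif1, Ptprc and Trem2. The 95% counting intervals of these levels overlapped between the neighbours Cd163 and Csf1r, Csf1r and Cd68, Cd68 and Lgals3, Itgam and Aif1, and Aif1 and Ptprc. In the MyoD-Cre library Lgals3 stood at rank 3, with an interval of 9.19 to 11.2 FPKM that overlapped that of Lyz2 (10.5 to 13.03 FPKM) and lay above that of Csf1r (6.33 to 7.31 FPKM). The only other overlapping neighbours there were Cd163 and Cd68, and Cd68 and Aif1. Summed over the 10 genes, the level was 49.7 FPKM in the control and 61.7 FPKM in the MyoD-Cre library, and without Lgals3 it was 46.3 and 51.5 FPKM.

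Of the 10 members, 9 reached 1 FPKM in at least 1 library and are called measured. All 9 reached it in both libraries. A gene that reached 1 FPKM in 1 library alone necessarily had a difference towards that library. The difference of a gene was log2((MyoD-Cre FPKM + 1)/(control FPKM + 1)), a scale on which low genes appear to differ less than they do, and higher or lower was called from a difference of 1 upwards in either direction. Lgals3 was higher by this rule and no member was lower, among 9 measured members. Of 13175 measured genes in the table, 2.68% were higher and 0.744% were lower. The median difference of the measured members was 0.24, close to the 0.18 of all measured genes, and 5 of the 9 lay above that median gene and 4 below it. A difference above 0 was seen in 7 of the 9, and in 73% of all measured genes. With a lower rule of 1.5-fold, Lgals3 and Aif1 were higher and no member was lower, against 9.15% and 2.91% of all measured genes. After Lgals3, Aif1 lay towards the upper end of the distribution, and Mrc1 and Cd163 lay towards its lower end, above 20.0% and 12.6% of measured genes.

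**Figure D2:**
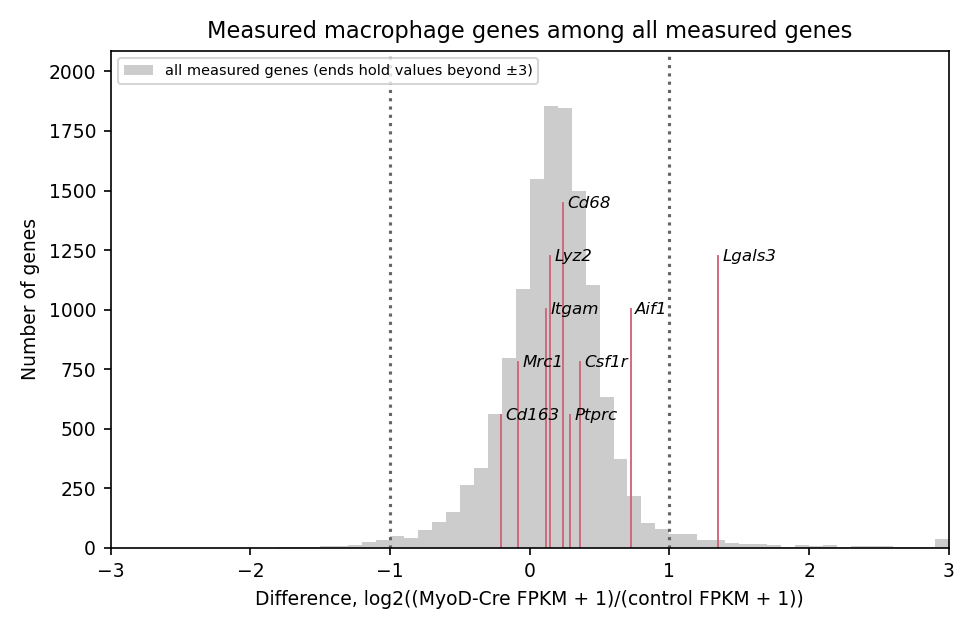
Histogram of the differences of all 13175 measured genes (log2 scale with a pseudocount of 1 FPKM, number of genes on the vertical axis), with the 9 measured macrophage genes as vertical lines whose heights carry no value. Lgals3, at 1.35, is the member beyond the dotted lines that mark a difference of 1 in either direction, and Aif1, at 0.73, is the next.

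Lgals3 encodes galectin-3, a lectin that binds galactosides and is found in the cytosol, on damaged lysosomes and outside cells. It lies on chromosome 14 from 47373860 to 47386167 on the plus strand (GRCm38, gene ENSMUSG00000050335.17). Its level was 3.39 FPKM in the control library and 10.2 FPKM in the MyoD-Cre library, a ratio of 3.00 (95% counting interval 2.45 to 3.69, on 127 and 401 recovered reads). Its difference of 1.35 was larger than that of 98.5% of measured genes. Ratios between members within a library do not depend on how the libraries are scaled. Lgals3 was at 0.823 times the level of Cd68 in the control and at 2.02 times in the MyoD-Cre library. Relative to Mrc1 it was at 0.232 and 0.739 times, which is 3.19 times as much in the MyoD-Cre library. Lgals3 made up 6.81% of the summed level of the 10 genes in the control and 16.5% in the MyoD-Cre library.

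Other galectins were listed beside Lgals3. Of 8 relatives of galectin-3 and of lysozyme, 6 were measured, 1 was higher by the rule and none was lower. The higher one was Lgals7, the galectin of stratified epithelia, at 1.58 FPKM in the control and 105 FPKM in the MyoD-Cre library. Lgals1, a galectin of muscle and connective tissue, was at 118 and 176 FPKM, a ratio of 1.49 (1.42 to 1.57). Lgals9 was at 11.7 and 12.1 FPKM and Lgals4 at 3.28 and 4.05 FPKM, with intervals of the ratio that held 1. All 10 keratinocyte genes were measured and 9 of them were higher by the rule, from Sfn at 1.84 and 11.0 FPKM to Krt1 at 2.48 and 669 FPKM. The exception was Trp63, at 1.95 and 4.12 FPKM. Keratinocytes themselves contain galectin-3, and their part in the Lgals3 value was not tested.

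Aif1 encodes the calcium-binding protein IBA1, which bundles actin in macrophages and microglia. It was at 1.89 FPKM in the control library and at 3.78 FPKM in the MyoD-Cre library, a ratio of 1.999 (1.48 to 2.72) from 67 and 141 recovered reads. Its difference of 0.73 was short of the rule. The deposited table places Aif1 on a scaffold, nt_187004 from 1489410 to 1494423, while GENCODE M21 has the gene on chromosome 17. The table places 1153 genes on scaffolds of this kind, Aif1 included. The sources used here do not say how reads that match both places were counted, so the level of Aif1 carries an uncertainty that its counting interval does not cover.

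Csf1r, the receptor for the growth factors CSF1 and interleukin-34, lies on chromosome 18 from 61105555 to 61131138. It was at 5.09 FPKM in the control and 6.81 FPKM in the MyoD-Cre library, a ratio of 1.34 (1.20 to 1.498) from 536 and 755 reads. This interval lay above 1 and, by a small margin, above 1.16, the median ratio of all measured genes. Ptprc, the CD45 phosphatase of all white blood cells (chromosome 1, 138063407 to 138175757), was at 1.39 and 1.92 FPKM. Its ratio was 1.38 with a wider interval of 1.07 to 1.80, since it rested on 103 and 150 reads, and this interval held the median ratio. Itgam, the integrin subunit CD11b (chromosome 7, 128062640 to 128118491), was at 2.39 and 2.68 FPKM, a ratio of 1.12 (0.897 to 1.41). Its interval held 1 with the smallest whole reads that fit the FPKM values. Of these 3 receptors, Csf1r lay above the median gene, and the intervals of Ptprc and Itgam held its ratio.

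Trem2, a receptor for lipids and apolipoproteins, was listed at 0.164 FPKM in the control and 0.591 FPKM in the MyoD-Cre library and was not measured by the minimum of 1 FPKM. It rested on 5 and 19 recovered reads, and its ratio of 3.61 had an interval of 1.30 to 12.4. Tyrobp, which encodes the signalling adaptor DAP12 that TREM2 needs, was at 3.16 and 7.08 FPKM, a ratio of 2.24 (1.58 to 3.20), and its difference of 0.96 was just short of the rule. In the list of TREM2 and DAP12 signalling, 4 of 7 genes were measured, and none was higher or lower by the rule. The kinase gene Syk was at 1.48 and 1.99 FPKM and the phospholipase gene Plcg2 at 1.47 and 1.70 FPKM, both with intervals that held 1. The phosphatase gene Inpp5d was at 2.73 and 3.58 FPKM, a ratio of 1.31 (1.14 to 1.51).

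The scavenger receptors were the 2 measured members with a level below that of the control library. Mrc1, the mannose receptor CD206 (chromosome 2, 14229414 to 14332023), was at 14.6 and 13.8 FPKM, a ratio of 0.940 (0.884 to 1.00) from 2074 and 2053 reads. Cd163, the receptor for haemoglobin bound to haptoglobin (chromosome 6, 124304619 to 124330529), was at 6.18 and 5.24 FPKM, a ratio of 0.847 (0.683 to 1.05). Both intervals, built on the smallest whole reads that fit the FPKM values, reached 1 but lay below the median ratio of 1.16. A multiple of these reads would narrow them, so they do not settle whether either ratio differs from 1. Together these receptors made up 41.8% of the summed level of the 10 genes in the control and 30.8% in the MyoD-Cre library. Mrc1 was at 2.87 times the level of Csf1r in the control and at 2.02 times in the MyoD-Cre library.

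**Figure D3:**
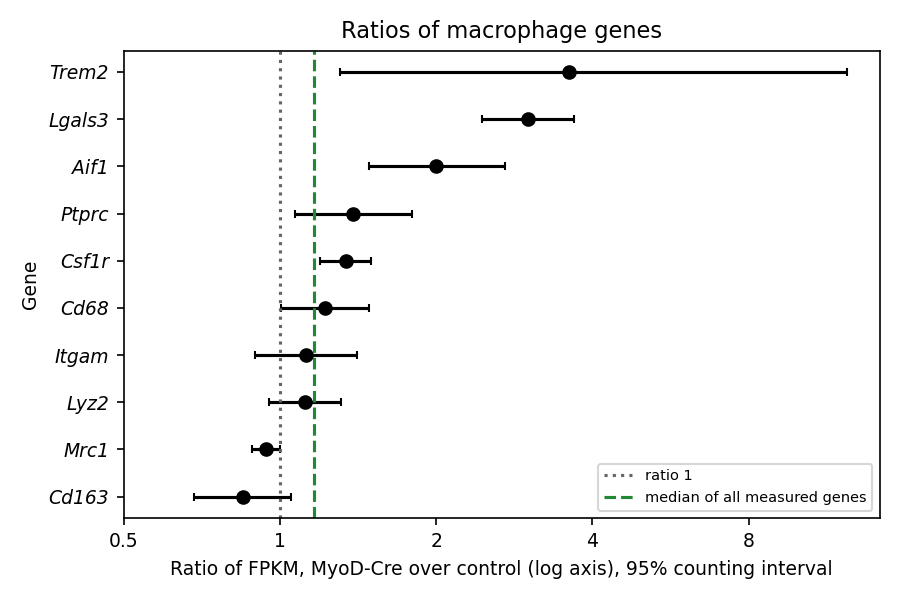
Ratio of the MyoD-Cre to the control FPKM for each of the 10 genes (log axis, 1 library per genotype) with its 95% counting interval as a bar; the dotted line is a ratio of 1 and the dashed line the median ratio of all measured genes, 1.16. Lgals3, Aif1, Trem2 and Csf1r lie with their whole interval above the dashed line, and Mrc1 and Cd163 lie below it.

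Cd68, a glycoprotein of the late endosome and lysosome (chromosome 11, 69664213 to 69666646), was at 4.11 FPKM in the control and 5.03 FPKM in the MyoD-Cre library. Its ratio was 1.22 (1.01 to 1.49) from 189 and 243 reads. Lyz2, the lysozyme of macrophages and neutrophils (chromosome 10, 117277541 to 117282272), was at 10.5 and 11.7 FPKM, a ratio of 1.12 (0.954 to 1.31) from 296 and 348 reads. Over all members, with the smallest whole reads that fit, 6 of 10 intervals lay above 1, 4 held 1 and none lay below it. If the true reads are a multiple, an interval that held 1 could exclude it. Among the 9 measured members 5 lay above 1, and among 11105 measured genes with recovered reads 51.9% did. The 5 of 9 are thus close to the share of all genes.

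Lyz2 has a near copy, Lyz1, the lysozyme of the gut, and reads from shared parts cannot be assigned to 1 of them. The stretch of 90 coding bases with the most differences between the copies is shown. Bases 43 to 132, counted from 1 at the A of the start codon, are given from GENCODE M21, with the 13 bases that differ in capitals.
Lyz1: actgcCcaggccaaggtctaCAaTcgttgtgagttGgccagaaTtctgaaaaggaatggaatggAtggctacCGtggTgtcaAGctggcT
Lyz2: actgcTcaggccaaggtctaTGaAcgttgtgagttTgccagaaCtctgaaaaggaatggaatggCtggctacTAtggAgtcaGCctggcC
Over the whole coding sequence 425 of 447 bases were identical (95.1%), and the longest shared run was 118 bases. The other copy was low, with Lyz1 at 0.623 FPKM in the control and 0.817 FPKM in the MyoD-Cre library. The ratio of Lyz1 was 1.31 with an interval of 0.723 to 2.41.

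Beyond the 10 members, 130 genes of macrophage biology in 12 lists were described, of which 84 were measured. Of these 3 were higher by the rule and none was lower, a share close to that of all measured genes. The 3 were Lgals7, Cebpa and Fabp5. The median difference of the 84 was 0.32, with 63 above the median gene. Cebpa, a factor of myeloid cells and of adipocytes, was at 3.49 and 13.7 FPKM, a ratio of 3.93 (3.41 to 4.54). Fabp5, a fatty acid-binding protein that is abundant in epidermis, was at 73.3 and 217 FPKM, a ratio of 2.97 (2.89 to 3.05). These genes are not particular to macrophages.

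The ligand Csf1 and most transcription factors of the lineage lay above the median gene. Csf1 was at 4.47 and 5.99 FPKM, a ratio of 1.34 (1.00 to 1.80), and the other ligand, Il34, lay below 1 FPKM in both libraries. The interval of Csf1 held the median ratio of 1.16. All 4 measured genes of the CSF1 receptor axis had a difference above 0 as deposited and none passed the rule, but Csf2ra lay below 0 under all 3 other scalings of the libraries and Cbl under 2 of them. The shared receptor subunit Csf2rb was at 1.47 and 1.90 FPKM, the GM-CSF receptor subunit Csf2ra at 2.86 and 3.08 FPKM, and Cbl, which marks the CSF1 receptor for breakdown, at 2.52 and 2.88 FPKM. Of 11 myeloid transcription factors 9 were measured, with a median difference of 0.65 and 8 above the median gene. Spi1, which encodes PU.1, was at 3.61 and 4.75 FPKM, a ratio of 1.31 (1.05 to 1.65), similar to that of Csf1r. Cebpb, a factor of inflammatory macrophages and of many other cells, was at 7.16 and 13.8 FPKM, a ratio of 1.93 (1.67 to 2.23). Maf, which encodes a factor of resident macrophages, was at 9.54 and 11.0 FPKM, and Irf5 was at 1.54 and 1.60 FPKM. The intervals of Spi1, Maf and Irf5 held the median ratio, and those of Cebpa and Cebpb lay above it.

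Genes of the macrophage surface were mixed. Of 22 listed genes 14 were measured, and none passed the rule. As deposited, 10 of the 14 had a difference above 0 and 4 below (9 and 5 under each of the 3 other scalings). Among all measured genes, 73% lay above 0. The minimum of 1 FPKM was reached by 10 of the 14 in the control and by 13 in the MyoD-Cre library. Genes that reached it in 1 library alone had their direction fixed by this minimum. Mertk, a receptor for dying cells, had the highest difference on the log2(FPKM + 1) scale at 4.80 and 8.73 FPKM, a ratio of 1.82 (1.65 to 2.01). The inhibitory Fc receptor gene Fcgr2b was the lowest at 2.45 and 1.57 FPKM, a ratio of 0.640 (0.463 to 0.879), followed by Fcgr1, an activating Fc receptor, at 1.26 and 0.895 FPKM. Cd52, a small surface glycoprotein of white blood cells, was at 0.447 and 1.35 FPKM from 6 and 19 reads, and its ratio of 3.01 (1.16 to 9.20) was larger than that of Mertk but far less precise. Adgre1, the F4/80 antigen of mouse macrophages, was at 0.983 and 1.41 FPKM, a ratio of 1.43 (1.08 to 1.91). The 3 chains of complement C1q, which resident macrophages make, lay together. C1qa was at 5.30 and 6.92 FPKM, C1qb at 16.3 and 21.2 FPKM and C1qc at 13.5 and 16.3 FPKM, with ratios of 1.30, 1.30 and 1.21. Their intervals lay above 1, as did 51.9% of those of measured genes with recovered reads. All of them held the median ratio of 1.16.

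Genes listed as markers of resident and scavenging macrophages lay mostly below the median gene, as Mrc1 and Cd163 did. C1qa, C1qb, C1qc and Maf, tied above to resident macrophages but placed in other lists, lay above it by 0.01 to 0.18. The pattern thus depends on how the lists were drawn. Of the 14 genes of the resident and scavenger list 8 were measured, with a median difference of 0.11 and 1 of 8 above the median gene. That gene was F13a1, the A chain of coagulation factor XIII, at 20.98 and 28.2 FPKM. Lyve1, a hyaluronan receptor of resident macrophages and lymph vessels, was at 16.7 and 17.2 FPKM, a ratio of 1.03 (0.951 to 1.12). Cbr2, a carbonyl reductase, was at 2.98 and 3.46 FPKM. Its interval of the ratio (0.857 to 1.58) held the median ratio of 1.16, while those of Lyve1 and Cd36 lay below that ratio. Cd36, a fatty acid receptor that muscle fibres and capillaries also express, was at 44.4 and 41.0 FPKM, a ratio of 0.922 (0.883 to 0.962). No test of the difference between lists was made, since each genotype had 1 library.

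**Figure D4:**
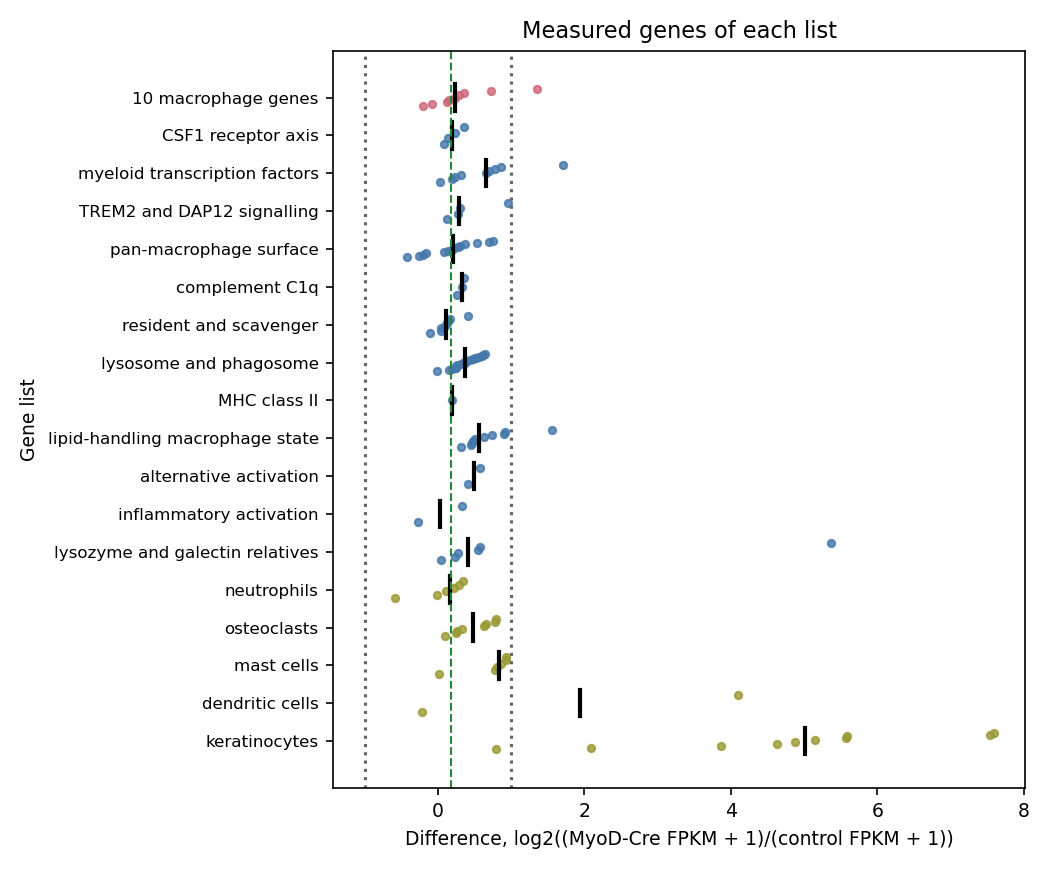
Differences of the measured genes of each list (log2 scale with a pseudocount of 1 FPKM), 1 point per gene, with the list median as a black bar, the median of all measured genes as a dashed line and differences of 1 as dotted lines; red marks the 9 measured macrophage genes, blue the lists of macrophage biology and olive the lists of other cell types. The macrophage genes centre at 0.24 near the dashed line, while the keratinocyte genes reach 7.59.

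Lysosomal genes and genes of lipid handling lay mostly above the median gene. Of 23 genes of the lysosome and phagosome 21 were measured, 19 were above the median gene (list median 0.36) and none passed the rule. Npc2, a cholesterol carrier, was at 11.3 and 17.8 FPKM and Lamp1, a lysosomal membrane protein, at 68.3 and 75.9 FPKM. Ncf1, a subunit of the phagocyte oxidase, was at 2.73 and 2.68 FPKM, a ratio of 0.983 (0.806 to 1.20). Most lysosomal enzymes are made by all cells, unlike the oxidase. In the list of lipid-handling macrophages all 10 genes were measured and above the median gene (list median 0.57), and 1, Fabp5, was higher by the rule. The minimum was reached by 8 of the 10 in the control and by all 10 in the MyoD-Cre library. Those short of it in the control were bound to lie above 0 as deposited. Gpnmb, a glycoprotein of lipid-laden macrophages, was at 0.622 and 1.02 FPKM, a ratio of 1.64 (1.19 to 2.28). Fabp4, an adipocyte protein also made by macrophages, was at 262 and 495 FPKM, and the tetraspanin gene Cd9 was at 35.7 and 49.4 FPKM.

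Genes of activated macrophages mostly lay below 1 FPKM in both libraries. Of 12 inflammatory genes 2 were measured, namely the co-stimulatory ligand gene Cd86 at 0.700 and 1.13 FPKM and the chemokine gene Ccl7 at 1.17 and 0.801 FPKM, with intervals that held 1. Il1b rested on 2 reads in each library. Of 8 genes of alternative activation 2 were measured, the growth factor genes Tgfb1 at 5.18 and 8.22 FPKM and Igf1 at 16.6 and 22.3 FPKM, both of which other cells of muscle also express. Arg1 lay below 1 FPKM and Retnla was listed at 0 in both libraries. Of 6 genes of MHC class II presentation 1, H2-Ab1, was measured, at 0.786 and 1.05 FPKM. Like Aif1, H2-Ab1 and most other genes of this list are placed on scaffolds, so their low levels carry the same uncertainty.

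Markers of other cells that can carry RNA of the members moved to different extents. Neutrophils are 1 of the other possible sources of Itgam and Lyz2. Their genes had a median difference of 0.16 over 6 measured of 15 listed, with a summed level of 22.0 FPKM in the control and 24.7 FPKM in the MyoD-Cre library. Among them the granule gene Ngp was at 1.45 and 2.12 FPKM, Camp at 1.19 and 1.67 FPKM, Mmp8 at 1.01 and 0.988 FPKM and Lcn2 at 3.69 and 2.13 FPKM, and Ly6g was listed at 0 in both. Osteoclasts are 1 of the other possible sources of Csf1r. Their genes had a median of 0.47 and summed levels of 182 and 299 FPKM. All 8 measured of 11 listed were above 0 (7 of 8 under each of the 3 other scalings, where Oscar lay below 0). The minimum was reached by 7 of the 8 in the control and by all 8 in the MyoD-Cre library. A gene short of it in the control was bound to lie above 0 as deposited. Ctsk, a protease that cuts bone collagen, was at 110 and 190 FPKM, the proton pump subunit Atp6v0d2 at 5.35 and 9.95 FPKM, the receptor gene Oscar at 1.03 and 1.17 FPKM and Nfatc1, a factor of osteoclasts and muscle, at 6.01 and 7.35 FPKM. The part of neutrophils in the Itgam and Lyz2 values and that of osteoclasts in the Csf1r value were not tested.

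Mast cell genes, whose cells carry Ptprc, had a median of 0.83 over 6 measured of 8 listed. Their summed level was 171 FPKM in the control and 315 FPKM in the MyoD-Cre library. The chymase gene Cma1 was at 73.1 and 141 FPKM, the tryptase gene Tpsb2 at 26.0 and 45.4 FPKM and Hdc, which makes histamine, at 9.32 and 18.6 FPKM, while Kit, the receptor for stem cell factor, was at 2.81 and 2.85 FPKM. None of the 10 T and NK cell genes and none of the 8 B cell genes was measured, with summed levels of 0.648 and 0.890 FPKM and of 2.20 and 2.77 FPKM. Of 8 dendritic cell genes 2 were measured. Irf4, which lymphocytes, melanocytes and other cells also express, was at 0.290 and 21.0 FPKM, and Zbtb46 was at 2.26 and 1.81 FPKM, while Flt3, Xcr1, Clec9a and Cd209a all lay below 1 FPKM. Cd207, the langerin of Langerhans cells in the epidermis, was listed at 0 in the control and at 0.0466 FPKM in the MyoD-Cre library.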

How the data were processed

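Hindlimb RNA was sequenced from 1 Srsf2 flox/flox and 1 Srsf2 flox/flox MyoD-Cre sample, and groups were taken from the genotype labels. Bowtie 0.12.2 and mm9 are named, per the submitters' processing notes, without a role. The deposited coordinates of 9 of the 10 members overlap the gene in GENCODE M21, so GRCm38 is used. The counting tool, the gene models and the use of strand were not given in the sources used here.

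FPKM values, as the authors deposited them, were used with no rescaling. The deposited mapping tables also give other values, namely read totals per library. Differences were log2((MyoD-Cre FPKM + 1)/(control FPKM + 1)). Measured genes reached 1 FPKM in either library, and calls were made from a difference of 1 upwards in either direction (2-fold), without a test. Small unspliced genes show that FPKM values were scaled to 26659452 (control) and 28060573 (MyoD-Cre) reads. From this the smallest whole reads that fit both values (relative tolerance 2e-13) and a whole gene length within the gene's span were found for 84.3% of measured genes and for all 10 members. The true reads may be a multiple, so ratio intervals (Clopper-Pearson) and level intervals (exact Poisson) are at least as wide as with them. With the true reads, an interval that held 1 or a median could thus exclude it, and levels whose intervals overlapped could be apart. With no molecular identifiers, reads are not independent molecules, and intervals cover counting error only.

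The members and the 20 context lists (201 genes, all found, 1 under an older symbol) were chosen with earlier results of these data known. The named genes are the 10 members and, per list, the measured genes past the rule and the 2 at either end, of which 1 gene is not reported here. Il34, Spi1, Adgre1, Lyz1, Il1b, Arg1, Retnla, Ly6g, Flt3, Xcr1, Clec9a, Cd209a and Cd207 were named in addition, after their values were seen. Srsf2 and the muscle markers Acta1, Myh8 and Des were given to describe the samples. No gene is named as most like a member, since 2 libraries give 1 difference that many genes share. Steps were run on simulated data with Poisson counting error alone, which cannot show how libraries of the same genotype vary. The software was Python 3.11.15 with pandas 2.3.3, scipy 1.17.1, numpy 2.4.6 and, for figures, matplotlib 3.10.9.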

Additional observations from a re-analysis of the deposited data

How the results depend on the processing

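Leaving out a library would have emptied a genotype and was not done. No paired analysis was possible because a genotype had a single library. Lgals3 stayed higher by the rule with a pseudocount of 0.1 FPKM, with no minimum, with a minimum of 5 FPKM, with a 1.5-fold rule and under the 3 other scalings, with a difference of 1.15 to 1.56. No member was lower under any of them. With a 1.5-fold rule 2 members were higher, Lgals3 and Aif1, and without Lgals3, an alternative chosen after the data were seen, the count was 0. The median difference of the members was 0.07 under median of ratios, 0.08 under TMM and 0.06 with a scaling to the sum without the top 50 genes, and these scalings brought the median gene to 0.01, 0.02 and -0.0023. Under them Itgam and Lyz2 changed sign, to between -0.02 and -0.05, and 5 of 9 members were above 0. Of 71 named genes, members included, 10, 9 and 13 changed sign under the 3 scalings in that order, none of them called by the rule. Against the median gene 5 members were above it under each scaling. With a pseudocount of 0.1 FPKM the difference of Trem2 was 1.39, but it stayed under the minimum. Of all measured genes, 353 were higher and 98 lower. The counts were 613 and 204 with a pseudocount of 0.1 FPKM, 169 and 54 at 5 FPKM or more, and 1205 and 383 with a 1.5-fold rule. Lower genes numbered 170 under median of ratios (60.2% of calls higher), 163 under TMM (61.7%), 173 without the top 50 genes (59.4%), against 78.3% as deposited, and 42 among mRNA genes alone (87.0%), chosen after the data were seen. A filter or a fold sets which genes count, and a smaller pseudocount enlarges differences by construction. The 3 scalings multiplied the MyoD-Cre values by 0.866, 0.877 and 0.859 in that order, which lowers the difference of each gene. Why these factors lay below 1 was not tested. Depth limits Trem2 most, with 5 and 19 reads.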
